A study of Homo sapiens with 16 samples.

Results

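The genes described here encode proteins that cut introns out of pre-mRNA or coat it: serine/arginine-rich (SR) proteins, spliceosomal small nuclear ribonucleoprotein (snRNP) proteins and heterogeneous nuclear ribonucleoproteins (hnRNPs). They were chosen by symbol, as those starting with SRSF, SF3A, SF3B, PRPF, SNRP, SNRNP or HNRNP, with TRA2A, TRA2B, U2AF1 and U2AF2. Of 84 such symbols in GENCODE 29, 83 were found among 19453 genes. The files carry identifiers without gene names, so genes were named by matching the coding lengths of neighbouring entries to GENCODE 29. With altered lengths, decoy genes passed this match 1.38% as often as the same genes with true lengths. Their subfamilies held 26 hnRNP genes, 20 PRPF and SNRNP genes, 12 SR protein genes, 12 genes of Sm and other snRNP proteins, 11 genes of the U2 snRNP and U2AF, and the TRA2 pair. Among them, 6 are near-copies of another member or a readthrough of one: HNRNPA1L2, HNRNPCL1, HNRNPCL2, HNRNPCL3, HNRNPCL4 and HNRNPUL2-BSCL2.

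Splicing joins exons after the spliceosome has recognised both ends of an intron. The U1 snRNP marks the 5′ splice site, U2AF and the U2 snRNP mark the 3′ splice site and the branch point, and the U4/U6.U5 tri-snRNP then completes the machine. SR proteins bound to exons generally promote the use of nearby splice sites, whereas many hnRNPs repress them, and several members of both families control their own mRNA through alternative exons that bring premature stop codons.

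Ribosome footprints, the mRNA fragments that ribosomes shield from RNase, were sequenced from 4 established cancer cell lines of human origin. NCI-H1650 and NCI-H520 come from lung cancers, and Hs 936.T and A375 from melanomas. Each line was given the solvent DMSO (2 libraries), rocaglamide A (RocA) at 0.3 µM (1 library) or RocA at 3 µM (1 library) for 30 min. RocA is a plant-derived inhibitor of translation that clamps the RNA helicase eIF4A, and per the series title also DDX3, onto RNA, with a known preference of the eIF4A complex for runs of purines (A and G). No line carried an engineered allele in the labels, and a line is 1 culture source, so the 4 lines served as the replicates of a dose. The error of the fit also drew on the spread between the DMSO libraries of a line, which may be technical.

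Counts on named genes ran from 86883 to 1061771 in RocA libraries and from 984124 to 5851297 in DMSO libraries. The treated total was 8.77% of its line's DMSO mean in NCI-H1650 at 3 µM and 45.4% in NCI-H520 at 3 µM, with the other lines and doses between. Levels are given as CPM, the counts of a gene scaled to a fixed total of counts on tested genes after TMM scaling. The tests over 16 libraries used the same scaling, and the tests of lines under DMSO used TMM factors of their own 8 libraries. A change therefore compares a gene with the rest of its library and says nothing about the total amount of translation. Footprints were not divided by mRNA levels, and more ribosomes per mRNA and more mRNA cannot be told apart. Melanocyte markers summed to 17573 to 31283 CPM in Hs 936.T, 356 to 463 in A375, 180 to 1457 in NCI-H520 and 82.1 to 123 in NCI-H1650. Lung epithelial markers summed to 13488 to 18915 CPM in NCI-H1650, 3538 to 4854 in NCI-H520, 278 to 452 in A375 and 4.26 to 7.37 in Hs 936.T, with 1 of 8 markers at 0 in all libraries. Mesenchymal markers summed to 3275 to 5256 CPM in A375 and 730 to 1873 in Hs 936.T. They summed to 178 to 386 CPM in NCI-H520 and 139 to 222 in NCI-H1650. Squamous markers summed to 173 to 383 CPM in NCI-H520 and 131 to 184 in NCI-H1650. They reached at most 13.7 CPM in A375 and 0.867 in Hs 936.T. Blood markers summed to 1443 to 2138 CPM in A375 and to at most 125 in NCI-H1650, 18.4 in Hs 936.T and 5.36 in NCI-H520. In NCI-H520 the melanocyte sum was lower with RocA, at 180 and 423 CPM, than in its DMSO libraries, at 607 and 1457 CPM. Without this line 44 of 82 tested members were lower and 14 higher at 0.3 µM, against 2945 and 2549 of 9983 genes tested. At 3 µM, 37 members were then lower and 13 higher, against 2700 and 2260 genes. The 4-line counts follow. A second point concerns the same line: DMSO replicate 2 and the 3 µM library have NCI-H520 in the title but NCI-H521 in the cell-line label. Counts of members called are therefore given without these libraries as well.

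More members lost footprints with RocA than gained them, at both doses. At 0.3 µM, 44 of 82 tested members were lower than with DMSO (53.7%, against 32.4% of all 9740 genes tested) and 16 were higher (19.5%, against 27.6%). At 3 µM, 39 were lower (47.6%, against 32.0%) and 18 were higher (22.0%, against 25.1%). A call means a Benjamini-Hochberg adjusted p under 0.05 in edgeR's quasi-likelihood test over all genes. The comparisons share the DMSO libraries. Lower at both doses were 36 members (43.9%, against 26.2%), and 14 were higher at both (17.1%, against 20.8%). In opposite directions 0 members were called, against 0.236% of all genes. That count was also 0 in edgeR at an unadjusted p under 0.05 and in DESeq2. At neither dose were 15 members called (18.3%), and the share of all genes called at neither is not given. Of the 44 lower at 0.3 µM, 42 lay below DMSO in each line (51.2% of members, against 27.9%), and of the 39 at 3 µM 36 did so (43.9%, against 27.9%). A fall of at least 2-fold was seen for 25 members at 0.3 µM (30.5%, against 19.9%) and 19 at 3 µM (23.2%, against 22.1%). Without the near-copies it was seen for 21 of 76 at 0.3 µM and 15 of 76 at 3 µM, where the share lay below that of all genes. A rise of at least 2-fold was seen for 4 members at each dose (4.88%, against 12.3% at 0.3 µM and 12.1% at 3 µM). The median log2 change of the members was -0.37 at 0.3 µM and -0.26 at 3 µM, against -0.09 and -0.16 over all tested genes. With no filter on low counts it was -0.56 and -0.49, against -0.44 and -0.51, so at 3 µM the members' median then lay above that of all genes. Without the near-copies, 39 of 76 were lower and 16 higher at 0.3 µM, and 34 were lower and 17 higher at 3 µM. Without the libraries labelled NCI-H521, 48 of 82 were lower and 15 higher at 0.3 µM, against 3532 and 2477 of 10146 genes tested. At 3 µM, 39 members were then lower and 13 higher, against 3003 and 2056 genes. Also with no filter, higher calls at 3 µM came to 10.

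Single lines showed the same balance, with 1 exception. Among the 76 tested members without near-copies, 47 lay below DMSO at 0.3 µM in NCI-H1650 (61.8%, against 54.4% of all tested genes), 52 in NCI-H520 (68.4%, against 54.7%), 53 in Hs 936.T (69.7%, against 52.0%) and 52 in A375 (68.4%, against 53.1%). At 3 µM the members below DMSO numbered 56 in NCI-H1650 (73.7%, against 63.6%), 47 in Hs 936.T (61.8%, against 55.1%) and 51 in A375 (67.1%, against 54.3%). In NCI-H520 at 3 µM, 37 lay below DMSO (48.7%, against 54.2%), a smaller share than among all tested genes. These shares describe single libraries and have no replicate check.

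Together, the 77 members without near-copies took 1.36% to 1.79% of named-gene counts in RocA libraries (median 1.60%) and 1.67% to 2.50% in DMSO libraries (median 2.29%). In every line, both RocA libraries lay below both DMSO libraries in this share of raw counts, which has no TMM scaling. With TMM scaling, the median log2 change of the 76 tested ones in NCI-H520 at 3 µM was 0.005, so the fall in that library depends on the scaling. The share was 1.39% at 0.3 µM and 1.42% at 3 µM in NCI-H1650, against 1.73% and 1.67% with DMSO, and 1.66% and 1.77% in A375, against 2.47% and 2.50% with DMSO. In Hs 936.T it was 1.36% and 1.60%, against 2.12% and 2.05% with DMSO, and in NCI-H520 1.59% and 1.79%, against 2.48% and 2.47%. A share follows the most abundant members, HNRNPA1 and HNRNPA2B1 among them, more than a count of genes does.

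**Figure D1:**
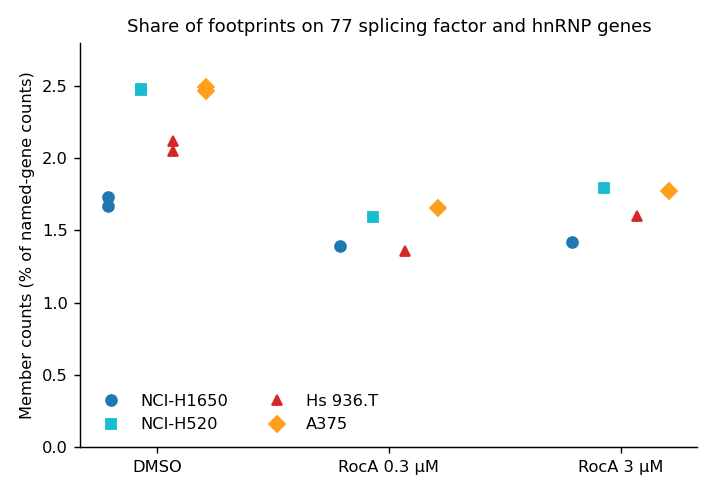
Share of named-gene footprint counts on the 77 members without near-copies (vertical axis, %), with 1 point per library, for DMSO and RocA at 0.3 and 3 µM (horizontal axis), coloured by line. In each line both RocA points (1.36% to 1.79% over the lines) lie below both DMSO points (1.67% to 2.50%). Shares are of raw counts, without the TMM scaling used for CPM.

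The plot of changes by line shows how members of a subfamily parted. Among hnRNP genes, 17 of 26 were lower and 2 higher at 0.3 µM (median log2 change -0.72), and 15 were lower and 5 higher at 3 µM (-0.64). All 6 near-copies are counted here. HNRNPCL1, HNRNPCL2, HNRNPCL3, HNRNPCL4 and HNRNPUL2-BSCL2 were lower at both doses, and HNRNPA1L2 was higher at 3 µM. They share reads with HNRNPC, HNRNPUL2 and HNRNPA1, so the hnRNP counts and medians do not stand for independent genes. The TRA2 pair was lower at both doses. Of 11 tested SR protein genes, 6 were lower and 3 higher at each dose (median -0.31 at both), and of 11 U2 snRNP and U2AF genes, 5 were lower and 4 higher at 0.3 µM (-0.22) and 6 were lower and 4 higher at 3 µM (-0.53). Genes of Sm and other snRNP proteins were lower in 8 of 12 cases and higher in 1 at 0.3 µM (-0.53), and lower in 5 and higher in 2 at 3 µM (-0.16). Of 20 PRPF and SNRNP genes, 6 were lower and 6 higher at 0.3 µM (-0.04), and 5 were lower and 4 higher at 3 µM (0.07). Over all tested genes 32.4% were lower and 27.6% higher at 0.3 µM, and 32.0% and 25.1% at 3 µM, and the differences between subfamilies and all genes were not tested.

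**Figure D2:**
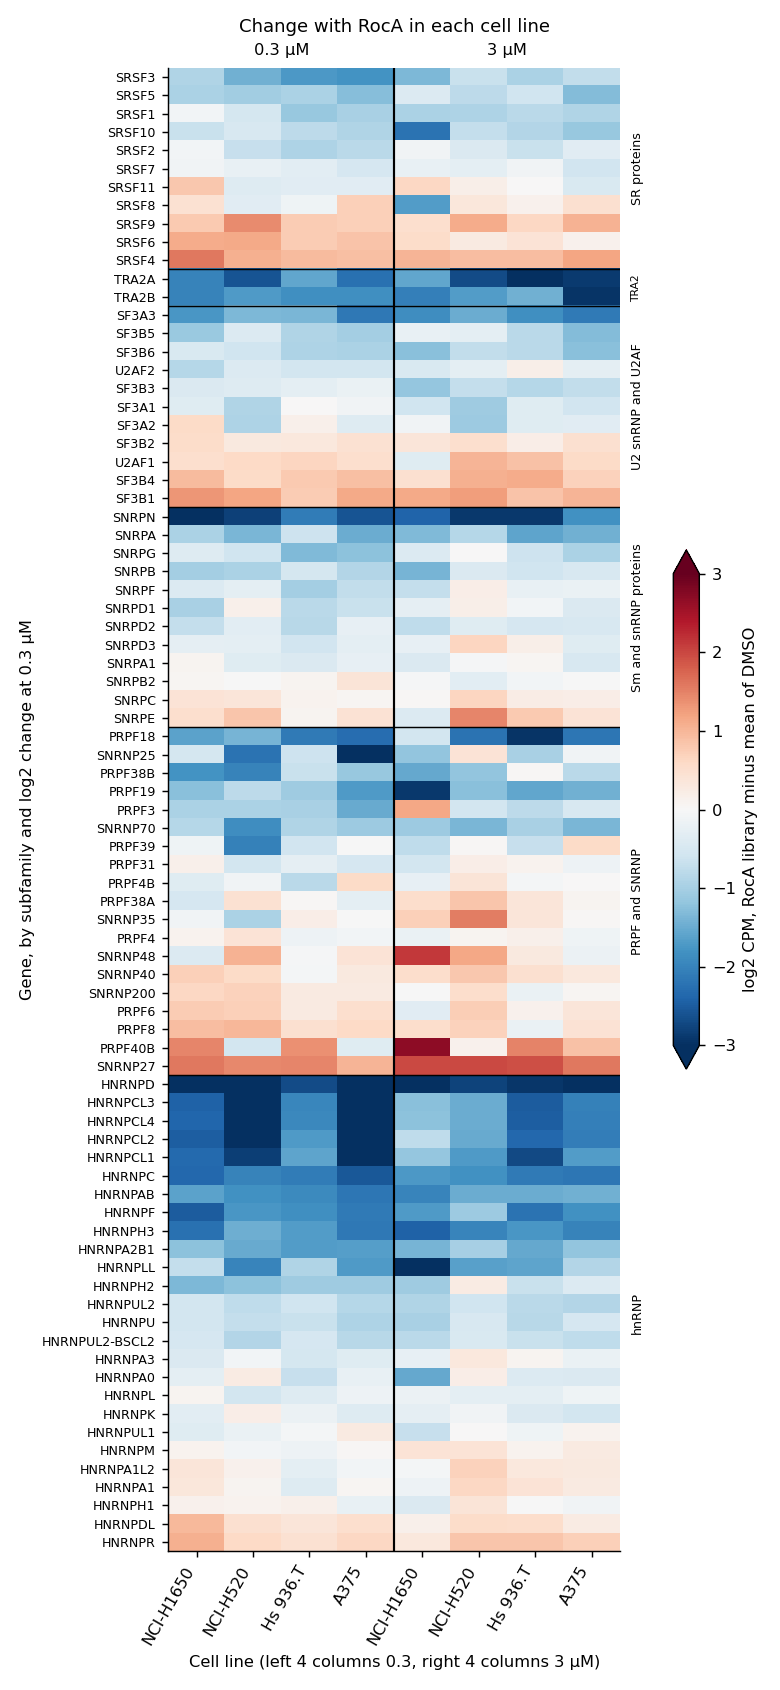
Heat map of the log2 change (CPM of the RocA library minus the mean of the DMSO libraries of that line, log2 scale, prior count 2) for 81 of the tested members, by subfamily and, within it, by the fitted change at 0.3 µM. Columns are the 4 lines at 0.3 µM and at 3 µM. Blue means lower and red higher than DMSO, and colours are capped at 3 in either direction. HNRNPD is dark blue in all 8 columns and SNRNP27 red in all 8.

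SR proteins contain RNA recognition motifs and a tail rich in arginine and serine. The largest rise among them was that of SRSF4, a general splicing activator (chromosome 1, 29147743 to 29181987, hg38). With DMSO SRSF4 had 39.7 and 28.8 CPM in NCI-H1650, 87.3 and 81.2 in NCI-H520, 57.0 and 52.1 in Hs 936.T and 81.6 and 87.3 in A375. At 0.3 µM SRSF4 had 104, 177, 107 and 158 CPM in the same order of lines. At 3 µM SRSF4 had 70.1, 160.0, 105 and 194 CPM in the same order of lines. Every RocA value lay above both DMSO values of its line, and across lines 70.1 CPM in NCI-H1650 at 3 µM was the RocA value inside the DMSO range, 28.8 to 87.3 CPM. The log2 change was 1.05 ± 0.13 (SE) at 0.3 µM (adjusted p = 4.3e-09, edgeR) and 1.05 ± 0.14 at 3 µM (adjusted p = 2.8e-08, edgeR).

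SRSF6, a close relative of SRSF4 and SRSF5 (chromosome 20, 43457928 to 43464247), was called higher at both doses. With DMSO SRSF6 had 288 and 306 CPM in NCI-H1650, 245 and 281 in NCI-H520, 277 and 283 in Hs 936.T and 363 and 338 in A375. At 0.3 µM SRSF6 had 643, 577, 472 and 636 CPM in the same order of lines. At 3 µM SRSF6 had 438, 315, 372 and 382 CPM in the same order of lines. At 0.3 µM all 4 values lay above every DMSO value, whereas at 3 µM the ranges overlapped. Its log2 change was 0.95 ± 0.10 at 0.3 µM (adjusted p = 1.6e-10, edgeR) and 0.32 ± 0.11 at 3 µM (adjusted p = 0.0146, edgeR), and the 3 µM comparison lost its call without the Hs 936.T library (0.24). SRSF9, a relative of SRSF1, rose as well (0.94 ± 0.11 and 0.87 ± 0.12).

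Falls among SR protein genes were led by SRSF3, the smallest SR protein, which also serves in mRNA export (-1.53 ± 0.13 at 0.3 µM and -0.82 ± 0.13 at 3 µM). SRSF5 changed by -1.07 ± 0.13 and -0.82 ± 0.14, and SRSF10, which turns into a splicing repressor when dephosphorylated, by -0.75 ± 0.14 and -0.99 ± 0.16. SRSF1, the founding member of the family, changed by -0.75 ± 0.13 and -0.88 ± 0.14, and SRSF2, long known as SC35, by -0.69 ± 0.12 and -0.43 ± 0.12. SRSF7, a relative of SRSF3, changed by -0.31 ± 0.11 (adjusted p = 0.0138, edgeR) and -0.31 ± 0.12 (adjusted p = 0.0212, edgeR). Its call ended at 0.3 µM without the Hs 936.T (-0.30) or A375 library (-0.27), and at 3 µM without the NCI-H520 (-0.32) or A375 library (-0.23). SRSF8 (0.17 ± 0.19 and 0.24 ± 0.21) and SRSF11 (-0.24 ± 0.16 and -0.05 ± 0.18) were not called.

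SRSF12 was the member not tested, since its counts were too low: 2 of 2464464 named-gene counts over the 4 libraries at 0.3 µM, 0 of 1750660 over the 4 at 3 µM and 50 of 22269313 over the 8 DMSO libraries. The count of 0 allows up to 1.71 CPM over the pooled 3 µM libraries (3 counts), counting error only.

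TRA2A and TRA2B are the human counterparts of fly Transformer-2 and bind GAA-rich exonic enhancers. With DMSO TRA2A had 100.1 and 110.0 CPM in NCI-H1650, 82.8 and 90.1 in NCI-H520, 73.2 and 69.9 in Hs 936.T and 84.5 and 73.6 in A375. At 0.3 µM TRA2A had 25.1, 13.4, 23.4 and 15.8 CPM in the same order of lines. At 3 µM TRA2A had 35.1, 12.5, 7.79 and 9.79 CPM in the same order of lines. The RocA range of TRA2A, 7.79 to 35.1 CPM, lay below the DMSO range, 69.9 to 110.0 CPM. TRA2A (chromosome 7, 23504780 to 23532041) changed by -2.02 ± 0.20 at 0.3 µM (adjusted p = 2.6e-11, edgeR) and -2.76 ± 0.26 at 3 µM (adjusted p = 1.2e-11, edgeR), and rested on 4 to 22 counts per RocA library. TRA2B changed by -1.85 ± 0.15 and -1.95 ± 0.17, and was lower in all 4 lines at both doses.

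The U2 snRNP and U2AF genes split by subunit. SF3B1, the largest subunit of SF3b, which holds the branch point (chromosome 2, 197389784 to 197435091), gained footprints. With DMSO SF3B1 had 286 and 244 CPM in NCI-H1650, 392 and 401 in NCI-H520, 399.6 and 369.7 in Hs 936.T and 227 and 238 in A375. At 0.3 µM SF3B1 had 665, 904, 649 and 514 CPM in the same order of lines. At 3 µM SF3B1 had 578, 940.3, 697 and 474 CPM in the same order of lines. All RocA values, 474 to 940.3 CPM, lay above all DMSO values, 227 to 401 CPM. The log2 change was 1.09 ± 0.10 at 0.3 µM (adjusted p = 7.9e-12, edgeR) and 1.06 ± 0.11 at 3 µM (adjusted p = 5.8e-11, edgeR).

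SF3B4, another SF3b subunit, with a pair of RNA recognition motifs (chromosome 1, 149923317 to 149928344), also rose. With DMSO SF3B4 had 170.0 and 169 CPM in NCI-H1650, 239 and 258 in NCI-H520, 304 and 322 in Hs 936.T and 299.8 and 297 in A375. At 0.3 µM SF3B4 had 331, 367, 543 and 561 CPM in the same order of lines. At 3 µM SF3B4 had 237, 518, 676 and 482 CPM in the same order of lines. Within each line the RocA values were the higher ones, while NCI-H1650 at 3 µM, at 237 CPM, lay inside the DMSO range over all lines, 169 to 322 CPM. SF3B4 changed by 0.81 ± 0.11 (adjusted p = 3.5e-08, edgeR) and 0.91 ± 0.11 (adjusted p = 7.0e-09, edgeR). SF3B2, which contacts the branch region, rose less (0.40 ± 0.10 and 0.40 ± 0.11).

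The other SF3 subunits moved down or were not called. SF3A3, a subunit of SF3a, had the largest fall (-1.65 ± 0.15 at 0.3 µM and -1.88 ± 0.17 at 3 µM). SF3B6, the subunit that lies next to the branch-point adenosine, changed by -0.78 ± 0.12 and -0.95 ± 0.13, the small subunit SF3B5 by -0.86 ± 0.16 and -0.71 ± 0.17, and SF3B3 by -0.33 ± 0.11 and -0.84 ± 0.12. SF3A1 and SF3A2 were called at 3 µM (-0.60 ± 0.15 and -0.53 ± 0.18) but not at 0.3 µM (-0.22 and -0.21). The U2AF subunits parted at 0.3 µM: U2AF1, which reads the AG at the end of the intron, rose (0.57 ± 0.12 and 0.73 ± 0.12), and U2AF2, which binds the polypyrimidine tract, fell (-0.57 ± 0.12) and was not called at 3 µM (-0.19 ± 0.12). Counts of U2AF1 equal those of its annotated copy U2AF1L5 in every library (5657 in all), so the value cannot be assigned to either.

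Sm proteins form a ring around snRNA. SNRPE, a subunit of that ring, rose (0.43 ± 0.14 at 0.3 µM, adjusted p = 0.00962, edgeR, and 0.78 ± 0.14 at 3 µM), but the call at 0.3 µM ended without the A375 library (0.38). SNRPG, its neighbour in the ring, fell (-0.96 ± 0.14 and -0.50 ± 0.14), with the call at 3 µM ending without the A375 library (-0.35). SNRPB (-0.82 ± 0.12 and -0.59 ± 0.12) and SNRPD2 (-0.52 ± 0.11 and -0.50 ± 0.12) fell at both doses. SNRPD1 (-0.53), SNRPD3 (-0.38) and SNRPF (-0.67) were called lower at 0.3 µM but not at 3 µM, with -0.15, 0.12 and -0.11 at 3 µM; between the doses they differed by 0.38 ± 0.18, 0.50 ± 0.16 and 0.56 ± 0.17, none of which was called.

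SNRPN, an imprinted gene for a Sm protein close to SNRPB (chromosome 15, 24823647 to 24978723), fell most in its subfamily. With DMSO SNRPN had 47.5 and 55.9 CPM in NCI-H1650, 58.5 and 67.8 in NCI-H520, 21.2 and 23.1 in Hs 936.T and 40.7 and 34.7 in A375. At 0.3 µM SNRPN had 3.59, 8.05, 4.26 and 5.26 CPM in the same order of lines. At 3 µM SNRPN had 8.76, 7.50, 1.95 and 9.79 CPM in the same order of lines. Its RocA values reached at most 9.79 CPM and its DMSO values were at least 21.2 CPM. The log2 change was -2.85 ± 0.31 at 0.3 µM (adjusted p = 3.7e-10, edgeR) and -2.61 ± 0.34 at 3 µM (adjusted p = 2.1e-08, edgeR), on 11 and 10 counts over 4 libraries, and any reads shared between SNRPN and SNRPB were not examined. Among proteins specific to a single snRNP, SNRPA of U1 fell (-1.05 ± 0.16 and -1.28 ± 0.18), SNRPC of U1 rose at 3 µM (0.32 ± 0.12; 0.20 at 0.3 µM, not called), and SNRPA1 (-0.29 and -0.16) and SNRPB2 (0.18 and -0.10) of U2 were not called.

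The PRPF and SNRNP genes include the largest rise of all members, that of SNRNP27, a small arginine- and serine-rich tri-snRNP protein (chromosome 2, 69893560 to 69905575). With DMSO SNRNP27 had 26.8 and 24.4 CPM in NCI-H1650, 36.9 and 40.2 in NCI-H520, 27.5 and 27.7 in Hs 936.T and 35.2 and 35.1 in A375. At 0.3 µM SNRNP27 had 79.0, 107, 78.8 and 71.9 CPM in the same order of lines. At 3 µM SNRNP27 had 105, 155, 109 and 108 CPM in the same order of lines. The lowest RocA value, 71.9 CPM, stood above the highest DMSO value, 40.2 CPM. SNRNP27 changed by 1.38 ± 0.15 at 0.3 µM (adjusted p = 1.9e-10, edgeR) and 1.87 ± 0.15 at 3 µM (adjusted p = 1.2e-13, edgeR).

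PRPF18, a factor of the second step of splicing (chromosome 10, 13586927 to 13630868), had the largest fall of this subfamily. With DMSO PRPF18 had 12.9 and 14.0 CPM in NCI-H1650, 16.2 and 15.6 in NCI-H520, 21.9 and 23.4 in Hs 936.T and 20.7 and 22.6 in A375. At 0.3 µM PRPF18 had 3.59, 5.36, 4.26 and 3.51 CPM in the same order of lines. At 3 µM PRPF18 had 8.76, 2.50, 1.95 and 3.92 CPM in the same order of lines. RocA values ran up to 8.76 CPM and DMSO values began at 12.9 CPM, but the RocA libraries held only 1 to 4 counts each. Its change was -2.24 ± 0.37 (adjusted p = 1.7e-06, edgeR) and -2.59 ± 0.45 (adjusted p = 6.9e-06, edgeR).

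At the core of the spliceosome, PRPF8, the U5 protein that surrounds the catalytic centre, rose (0.72 ± 0.11 at 0.3 µM and 0.36 ± 0.12 at 3 µM, adjusted p = 0.0127, edgeR). Its call at 3 µM ended without the NCI-H520 (0.25) or the A375 library (0.29), without the libraries labelled NCI-H521 (0.22) and with no filter on low counts (0.20). SNRNP200, the helicase that unwinds U4 from U6, rose at 0.3 µM (0.44 ± 0.11) and was not called at 3 µM (0.11 ± 0.12). The U5 proteins PRPF6 (0.51 ± 0.12) and SNRNP40 (0.34 ± 0.13) rose at 0.3 µM, and SNRNP40 also at 3 µM (0.55 ± 0.13; PRPF6 0.30 ± 0.14, not called). PRPF40B, a U1-associated protein with a mean of 9.31 CPM, was called higher at both doses (1.03 ± 0.36 and 1.40 ± 0.40), though 2 of 4 lines lay below DMSO at 0.3 µM. PRPF19, the ubiquitin ligase at the heart of the complex named after it, fell (-1.22 ± 0.14 and -1.48 ± 0.16), as did SNRNP70 of U1 (-1.11 ± 0.15 and -1.22 ± 0.17), PRPF3 of the tri-snRNP (-1.12 ± 0.21 and -0.54 ± 0.21) and PRPF38B (-1.24 ± 0.28 and -0.69 ± 0.29). At 3 µM, however, PRPF3 lay above DMSO in NCI-H1650 (log2 change 1.16, on 4 counts) and PRPF38B in Hs 936.T (0.03). Their calls at 3 µM had adjusted p = 0.0238 for PRPF3 and 0.0416 for PRPF38B (edgeR). PRPF38B rested on 1 to 12 counts per 3 µM library. SNRNP25, of the minor spliceosome, was lower at 0.3 µM (-1.35 ± 0.44) and not called at 3 µM (-0.20 ± 0.41). PRPF4, PRPF31, PRPF38A, PRPF39, PRPF4B, SNRNP35 and SNRNP48 were called at neither dose, with log2 changes from -0.62 to 0.29 at 0.3 µM and from -0.04 to 0.57 at 3 µM.

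Among hnRNPs, HNRNPD, also known as AUF1, binds AU-rich elements and sets the stability of many mRNAs (chromosome 4, 82352498 to 82374503). With DMSO HNRNPD had 299.5 and 299 CPM in NCI-H1650, 397 and 475 in NCI-H520, 325 and 307 in Hs 936.T and 352 and 347 in A375. At 0.3 µM HNRNPD had 21.6, 37.5, 47.9 and 31.6 CPM in the same order of lines. At 3 µM HNRNPD had 26.3, 62.5, 40.9 and 41.1 CPM in the same order of lines. No RocA library exceeded 62.5 CPM and no DMSO library fell under 299 CPM. The RocA values rested on 3 to 45 counts per library. The log2 change was -3.20 ± 0.16 at 0.3 µM (adjusted p = 2.3e-19, edgeR) and -2.98 ± 0.17 at 3 µM (adjusted p = 1.2e-17, edgeR). Its close relative HNRNPDL went the other way (0.57 ± 0.11 and 0.41 ± 0.11).

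HNRNPC, which coats uridine tracts, changed by -2.24 ± 0.13 and -2.01 ± 0.13, and lay between 79.0 and 223 CPM in RocA libraries and between 388 and 792 CPM in DMSO libraries. The HNRNPC-like genes are near-copies of it and held 9.33% to 10.5% of its counts, so the reads of these genes cannot be told apart. HNRNPCL3 was the one of them with the lowest change at 0.3 µM (-2.76 ± 0.27), and HNRNPCL4 was nearly the same (-2.75 ± 0.27). With DMSO HNRNPCL3 had 35.4 and 53.3 CPM in NCI-H1650, 92.7 and 81.2 in NCI-H520, 49.8 and 48.3 in Hs 936.T and 69.2 and 66.6 in A375. At 0.3 µM HNRNPCL3 had 7.19, 5.36, 11.7 and 7.01 CPM in the same order of lines. At 3 µM HNRNPCL3 had 17.5, 30.0, 7.79 and 15.7 CPM in the same order of lines. The RocA and DMSO ranges of HNRNPCL3 did not overlap, but the RocA libraries held only 2 to 12 counts each. HNRNPCL4 had the same counts as HNRNPCL3 in all 8 RocA libraries and, with DMSO, 33.7 and 53.3 CPM in NCI-H1650, 92.7 and 80.4 in NCI-H520, 49.0 and 47.8 in Hs 936.T and 69.2 and 67.1 in A375. At 3 µM the pair changed by -1.93 ± 0.26 and -1.92 ± 0.26. HNRNPCL1 changed by -2.38 and -1.92, and HNRNPCL2 by -2.64 and -1.87.

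HNRNPA2B1 and HNRNPA1 are abundant relatives that repress exons. HNRNPA2B1 fell (-1.53 ± 0.12 and -1.25 ± 0.12), while HNRNPA1 was not called at 0.3 µM (0.02 ± 0.12) and was called higher at 3 µM (0.34 ± 0.12, adjusted p = 0.0131, edgeR). That call ended without the NCI-H520 (0.23) or the Hs 936.T library (0.25), without the libraries labelled NCI-H521 (0.22) and with no filter on low counts (0.19). HNRNPA3 fell at 0.3 µM (-0.35 ± 0.11; 0.04 ± 0.11 at 3 µM, not called), and HNRNPA0 was called at neither dose (-0.27 ± 0.13 and -0.31 ± 0.14). HNRNPA1L2, a near-copy that held 52.2% as many counts as HNRNPA1, changed by 0.01 and 0.37.

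The HNRNPF and HNRNPH genes encode proteins that bind runs of G. HNRNPF fell (-1.93 ± 0.15 and -1.77 ± 0.15), as did HNRNPH3 (-1.81 ± 0.14 and -1.99 ± 0.16). HNRNPH2 fell at 0.3 µM (-1.15 ± 0.16) and was not called at 3 µM (-0.34 ± 0.15), and HNRNPH1 was called at neither (0.04 ± 0.11 and 0.03 ± 0.12). HNRNPK, which binds C-rich RNA, was not called at 0.3 µM (-0.16 ± 0.11) and was called lower at 3 µM (-0.35 ± 0.11), and the call ended without the lines Hs 936.T (-0.31) or A375 (-0.28). HNRNPR, a relative of SYNCRIP, rose (0.67 ± 0.11 and 0.74 ± 0.11), and HNRNPM was called higher at 3 µM (-0.04 ± 0.10 at 0.3 µM and 0.30 ± 0.11 at 3 µM). HNRNPAB (-1.94 ± 0.13 and -1.50 ± 0.13), HNRNPU, a nuclear scaffold protein (-0.72 ± 0.11 and -0.65 ± 0.12), HNRNPUL2 (-0.73 ± 0.13 and -0.77 ± 0.15) and HNRNPLL, a regulator of CD45 splicing (-1.21 ± 0.22 and -1.52 ± 0.27), fell at both doses. HNRNPLL had 0 counts in NCI-H1650 at 3 µM. HNRNPL, a binder of CA repeats, was called lower at 0.3 µM (-0.26 ± 0.11) and not at 3 µM (-0.22 ± 0.11), and HNRNPUL1 was called at neither (-0.06 ± 0.13 and -0.11 ± 0.14). The readthrough HNRNPUL2-BSCL2, at 92.4% of the counts of HNRNPUL2, changed by a like amount (-0.71 and -0.64).

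**Figure D3:**
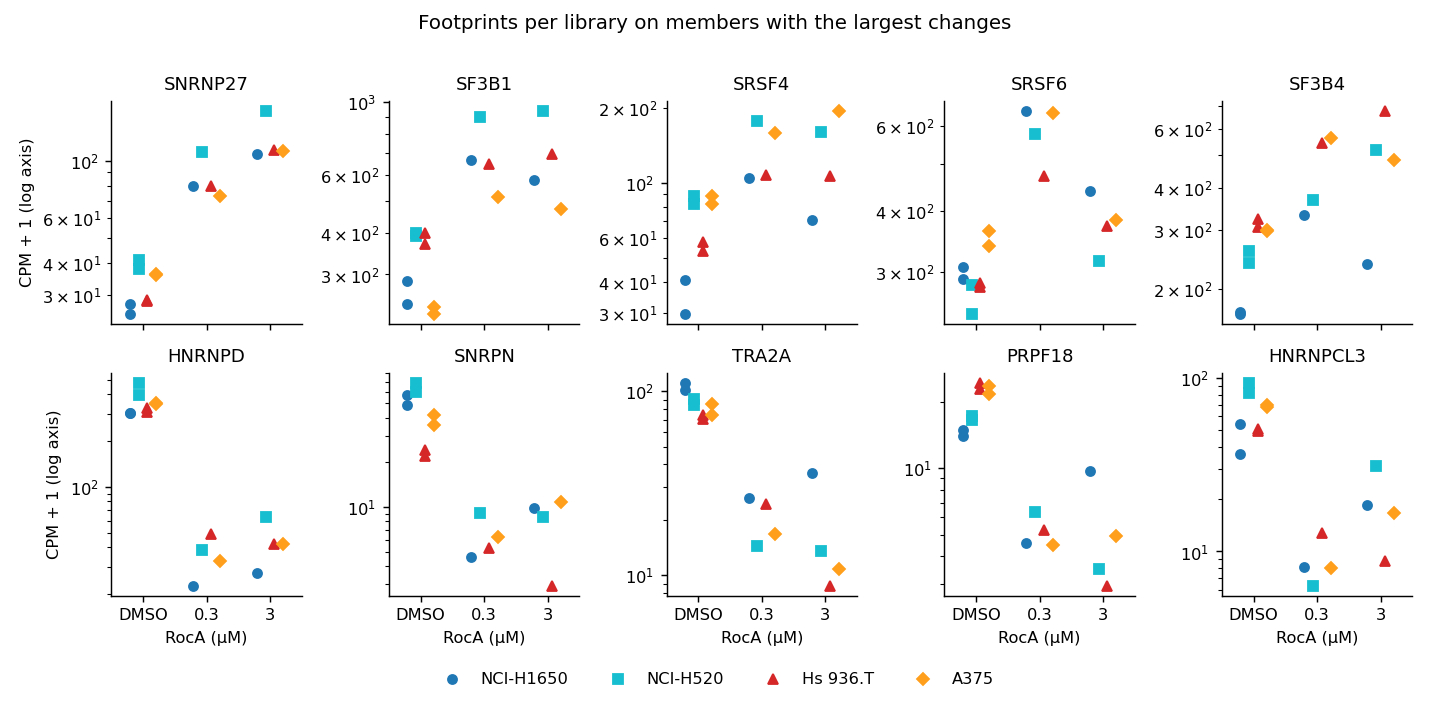
CPM + 1 per library (log axis) with DMSO and RocA at 0.3 and 3 µM for 10 members with the largest changes; HNRNPCL4 is left out, as its RocA counts equal those of HNRNPCL3. Colours and symbols mark the line, and each panel has its own scale. RocA values lie above the DMSO values of the same line in each panel of the top row and below them in each panel of the bottom row.

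The fitted changes of 11 fixed pairs of members, each pair from within a subfamily, are plotted together. TRA2A and TRA2B were both lower, as were SRSF2 and SRSF10, and SRSF3 and SRSF7. SRSF9 was higher and SRSF1 lower, SRSF4 higher and SRSF5 lower, SF3B1 higher and SF3B3 lower, at both doses. HNRNPH3 was lower at both doses and HNRNPH1 was called at neither. Differences between genes of a pair were not tested as such, since each gene has its own fit.

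**Figure D4:**
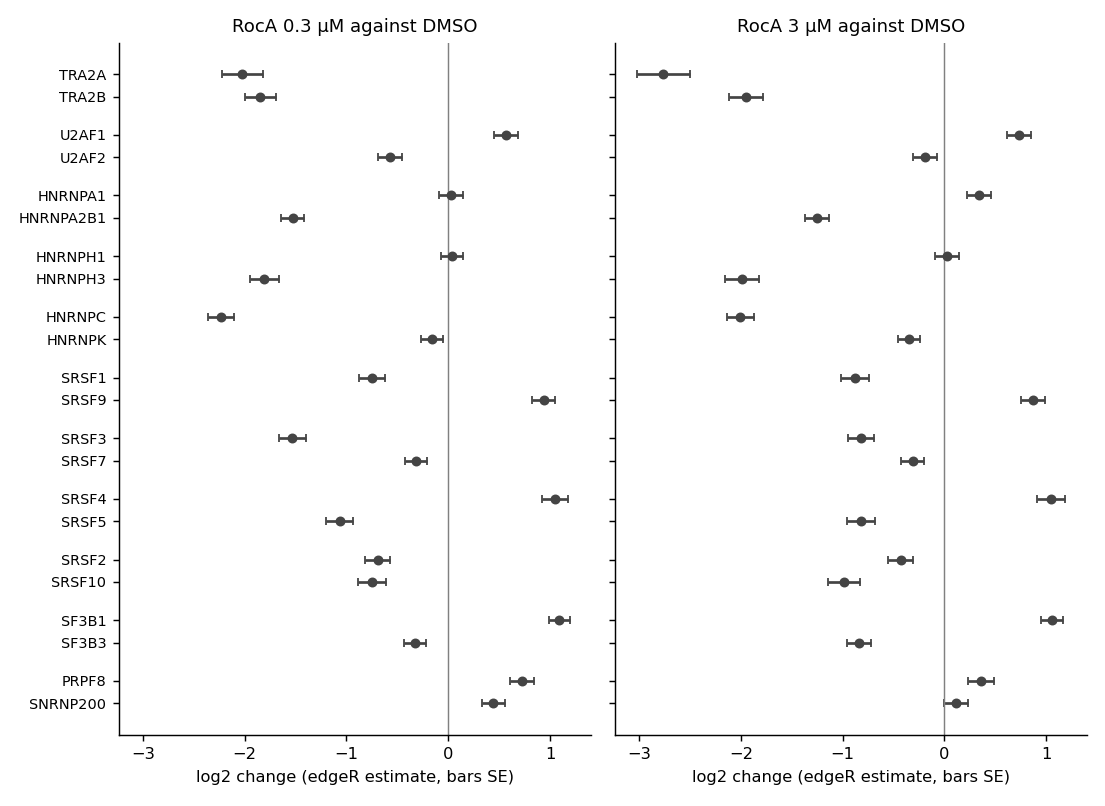
Fitted log2 change (horizontal axis, points, with SE bars) of 11 pairs of members at 0.3 µM (left) and 3 µM (right) against DMSO, from edgeR over 16 libraries. SRSF1 and SRSF9, SRSF4 and SRSF5, and SF3B1 and SF3B3 lie on opposite sides of 0 at both doses.

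RocA's complex with eIF4A prefers purine runs, so the annotated 5′ untranslated region (5′ UTR) of members with large changes is shown. Each window is 30 bases of the mRNA-sense strand, 5′ to 3′, with the longest run of A and G of that 5′ UTR in capitals; sequences and coordinates are from GENCODE 29 on hg38, for 1 transcript whose coding length equals that of the counted entry. The first 3 genes fell with RocA and the other 5 rose.
HNRNPD (chr4:82373927-82373956, minus strand): aaagcGAGGAGGAGGcgagagcggccgccg
SNRPN (chr15:24962169-24962198, plus strand): caagtcaaacgcAGAAGGActgcctcactg
PRPF18 (chr10:13587031-13587060, plus strand): gaggctgggttcGAGGAGctggagcgggaa
SNRNP27 (chr2:69893756-69893785, plus strand): ggacaaaaatGGGGGAAAAAtgaaagctgt
SF3B1 (chr2:197435031-197435060, minus strand): ggcggcgacgagcGGAAGttcttgggagcg
SRSF4 (chr1:29181922-29181951, minus strand): ccttccgcctcGGGGAAGGGcgggggaagt
SF3B4 (chr1:149928191-149928220, minus strand): ggctgcaggcGAGAGGGAAGGctccctctg
SRSF6 (chr20:43457928-43457957, plus strand): gtGAGGcgcgtgttcgggctcttgccgtcc
The longest run measured 10 bases in HNRNPD, 7 in SNRPN and 6 in PRPF18, against 10 in SNRNP27, 5 in SF3B1, 9 in SRSF4, 11 in SF3B4 and 4 in SRSF6. The lengths of both sets overlap. The 5′ UTR was 278 bases long in HNRNPD, 526 in SNRPN and 160 in PRPF18, against 425 in SNRNP27, 92 in SF3B1, 235 in SRSF4, 585 in SF3B4 and 106 in SRSF6.

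Over the 76 tested members without near-copies, the 5′ UTR of the 39 called lower at 0.3 µM had a median length of 217 bases, a median longest purine run of 8 bases and a median G+C share of 61.0%. The 16 called higher had 108.5 bases, 7 bases and 68.6%, and the 21 not called 170 bases, 7 bases and 61.8%. All tested genes with a 5′ UTR had 245 bases, 9 bases and 64.7% where called lower, and 101 bases, 6 bases and 68.4% where called higher. AGAGAG or GAGAGA, which overlap each other and were searched on the mRNA-sense strand, were present in 6 of the 39 lower members (15.4%), 0 of the 16 higher and 2 of the 21 not called, against 19.1%, 6.14% and 11.6% of all such genes. At 3 µM the medians were 224 bases and 8 bases in the 34 lower members and 114 bases and 7 bases in the 17 higher ones, against 241 and 9 and against 99 and 6 in all genes. These features are described without a test.

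Few members differed between the doses. Compared with 0.3 µM, 2 members were higher at 3 µM (2.44%, against 0.893% of all tested genes) and 2 were lower (2.44%, against 2.38%). The higher ones were HNRNPH2 (0.81 ± 0.21, adjusted p = 0.0202, edgeR) and SRSF3 (0.71 ± 0.16, adjusted p = 0.00714, edgeR), whose fall was less deep at the higher dose. HNRNPH2 had 52.6, 143, 87.6 and 70.5 CPM at 3 µM in NCI-H1650, NCI-H520, Hs 936.T and A375, against 43.1, 51.0, 66.1 and 43.8 CPM at 0.3 µM. SRSF3 had 114, 350.1, 210.3 and 317 CPM, against 154, 204, 123 and 153 CPM, so NCI-H1650 went against the other lines. The lower ones were SRSF6 (-0.64 ± 0.13, adjusted p = 0.00312, edgeR) and SF3B3 (-0.51 ± 0.14, adjusted p = 0.0272, edgeR). The counts changed when single libraries were left out. Without the NCI-H1650 3 µM library 7 members were called higher and 1 lower, without the NCI-H520 3 µM library 1 higher, without the A375 0.3 µM library 1 higher and 1 lower, and without either RocA library of Hs 936.T 1 lower. They came to 5 higher in libraries thinned to equal depth, 7 higher in DESeq2, and 1 higher and 1 lower without the libraries labelled NCI-H521. The counts of all genes in these settings are not given, so shifts of members and of all genes cannot be told apart.

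The lines' responses were compared with 1 RocA term per line shared by both doses. The error of that fit comes from libraries within a line, not from the spread between lines of an origin. SNRPG was the member called as differing between lines (adjusted p = 0.0349, edgeR), which is 1.22% of members against 2.97% of all tested genes. Its log2 changes at 0.3 µM were -0.60 in NCI-H520, -0.40 in NCI-H1650, -1.22 in A375 and -1.33 in Hs 936.T. At 3 µM they were 0.00 in NCI-H520, -0.42 in NCI-H1650, -0.95 in A375 and -0.61 in Hs 936.T. The response was higher in the lung than in the melanoma lines by 0.73 ± 0.18 (adjusted p = 0.0226, edgeR), 1 member called higher (0.205% of all genes) and 0 lower (0.544%) by edgeR, with 1 lower at an unadjusted p under 0.05. SNRPG was not called in either test without the libraries labelled NCI-H521, without Hs 936.T DMSO replicate 1, A375 DMSO replicate 1 or NCI-H520 DMSO replicate 2, or without the NCI-H520 library of either dose or the A375 library at 3 µM, and the lung minus melanoma call also ended without the 0.3 µM library of NCI-H1650 or Hs 936.T. The count of members that differed between lines was 2 without the NCI-H1650 library of either dose or the A375 0.3 µM library, and 3 without the Hs 936.T 3 µM library. All-gene counts in those settings are not given. The next members by p were SNRPE (adjusted p = 0.0694, edgeR) and HNRNPA0 (adjusted p = 0.0951, edgeR).

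Under DMSO the members differed widely in footprint density, given as CPM per 100 codons counted (SD, n = 2). HNRNPA1 was the densest by the mean over lines, with 992 ± 35.9 in NCI-H520, 278 ± 5.85 in NCI-H1650, 732 ± 3.94 in A375 and 549.8 ± 24.0 in Hs 936.T. HNRNPA2B1 had 599 ± 12.2 in NCI-H520, 372 ± 4.49 in NCI-H1650, 535 ± 28.0 in A375 and 421 ± 23.6 in Hs 936.T. SNRPG had 426 ± 39.7 in NCI-H520, 332 ± 12.8 in NCI-H1650, 523 ± 58.4 in A375 and 446 ± 35.7 in Hs 936.T, and its order among the melanoma lines and NCI-H520 lay within about their SD. The Sm and other snRNP proteins had the highest median of the larger subfamilies, 179 CPM per 100 codons, against 77.9 for SR proteins, 76.5 for hnRNPs, 35.3 for the U2 snRNP and U2AF and 12.02 for PRPF and SNRNP. PRPF40B was the least dense, at 0.597 CPM per 100 codons over the lines, next to SRSF12 at 0.800.

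**Figure D5:**
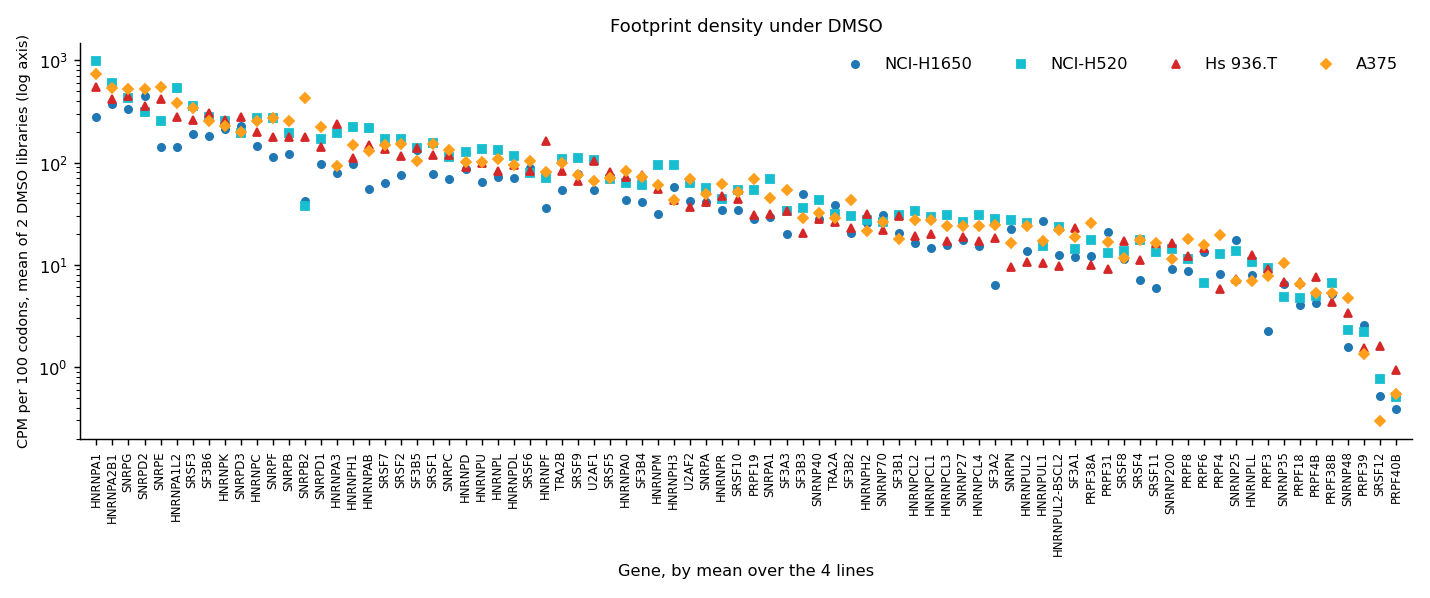
Footprint density under DMSO (CPM per 100 codons, log axis, mean of 2 libraries) of 82 members in each line, ordered by the mean over lines. HNRNPA1 stands at the left and PRPF40B at the right, and SNRPB2 shows the widest spread between lines.

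Levels also differed between lines under DMSO. By the F test over the 4 lines, 82 of 83 members were called (98.8%, against 91.6% of 12097 genes), the exception being PRPF38B (adjusted p = 0.0998, edgeR). With such a share called, the size of the difference tells the lines apart better. The highest line exceeded the lowest by a median of 2.05-fold, from 1.16-fold for SRSF5 to 11.3-fold for SNRPB2. SNRPB2, a U2 snRNP protein, had 81.5 ± 12.2 CPM in NCI-H520, 90.3 ± 4.41 in NCI-H1650, 920.3 ± 52.1 in A375 and 383 ± 16.2 in Hs 936.T (SD, n = 2). Both melanoma lines stood above both lung lines, and the lung lines did not differ from each other beyond their SD. HNRNPF had 289.6 ± 27.6 CPM in NCI-H520, 146 ± 8.02 in NCI-H1650, 329 ± 1.75 in A375 and 657 ± 8.41 in Hs 936.T, with Hs 936.T apart from the rest. HNRNPA1 had 3087 ± 112 CPM in NCI-H520, 863 ± 18.2 in NCI-H1650, 2277 ± 12.3 in A375 and 1710 ± 74.7 in Hs 936.T. In NCI-H1650 54 of the 83 members had their lowest level, and in NCI-H520 36 had their highest. The same counts over all genes are not given, so these cannot be read as particular to the members.

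Between the origins, 44 members were lower in the lung than in the melanoma lines under DMSO (53.0%, against 31.6% of all genes) and 10 were higher (12%, against 28.7%). The largest differences were those of SNRPB2 (-2.85 ± 0.08, adjusted p = 1.6e-30, edgeR), SNRPE (-1.40 ± 0.07) and HNRNPF (-1.24 ± 0.07) on the lower side, and SNRNP25 (1.05 ± 0.21), SNRPN (0.93 ± 0.12) and SF3B3 (0.75 ± 0.06) on the higher side. With 2 lines of each origin, origin and line cannot be told apart. The levels in NCI-H1650, the lowest line for 54 of the 83 members, enter each of these values. The SE, p and calls rest on the spread between DMSO libraries of a line, not on that between lines of an origin. Without the libraries labelled NCI-H521, 41 were lower and 8 higher, and the share of all genes in that setting is not given.

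Other genes of splicing, from a list of 98 that the choice by symbol leaves out, were examined beside the members. All 96 that were named were tested: 34 were lower and 36 higher at 0.3 µM (median log2 change -0.02), and 31 were lower and 39 higher at 3 µM (0.11). Of all tested genes 32.4% were lower and 27.6% higher at 0.3 µM, and 32.0% and 25.1% at 3 µM. The largest rises at 0.3 µM were those of LSM5, a ring protein of U6 (1.76 ± 0.16), CLK1, a kinase of SR proteins (1.43 ± 0.23), and KHDRBS1, the signalling-linked RNA binder Sam68 (1.39 ± 0.10). The largest falls were those of BUD31, a spliceosome component (-3.50 ± 0.24), TIA1, a stress granule protein (-2.37 ± 0.26), and MBNL1, a muscleblind splicing regulator (-2.19 ± 0.24). At 3 µM the largest rises were those of LSM5 (2.22 ± 0.16), PPIL1, a prolyl isomerase of the spliceosome (1.72 ± 0.16) and LSM3, of the same ring as LSM5 (1.70 ± 0.14), and the largest falls those of MBNL2, a relative of MBNL1 (-3.05 ± 0.65), BUD31 (-2.74 ± 0.24) and TIA1 (-2.26 ± 0.29). The difference between this list and the members was not tested.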

How the data were processed

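Footprints were measured in 16 libraries of 4 cell lines. Per the submitters' processing notes, the tools CASAVA 1.8, Bowtie2 2.1.0 and TopHat2 2.0.9 and the build hg38 were used. The deposited files of the authors hold raw counts per transcript entry (182398 entries) and the number of codons counted, with no normalization. Which annotation release supplied the identifiers: not given in the sources used here. Reads are repeated over the entries of a gene, so the entry with the highest sum over all libraries stood for its gene.

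Genes were named by length and order. Coding lengths less 10 codons were aligned, in chromosome order, to the coding transcripts of GENCODE 29, and a gene was kept at odds of at least 100. Of 93916 coding entries, 72650 were aligned (77.4%). Altered lengths passed for 27 of 2031 decoy genes, against 1954 with true lengths (1.38%). Of the 83 members, 69 had odds of at least 1000, an alternative chosen after seeing the data, and 70 matched the longest coding sequence of the gene.

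Counts were fitted with edgeR 4.0.16 (TMM scaling, filterByExpr with a minimum count of 10, robust quasi-likelihood F test, 2-sided, Benjamini-Hochberg over all tested genes, call under 0.05) in R 4.3.3. Other software was DESeq2 1.42.0, limma 3.58.1, Python 3.11.15, pandas 2.3.3, NumPy 2.4.6, numba 0.67.0 and matplotlib 3.10.9. The dose fit had terms for line and dose over 16 libraries, and the DMSO fit a term for line over 8. Changes by line use a prior count of 2. SE is the size of the log2 change over the root of F. Replicate numbers did not pair DMSO libraries, since deviations correlated between lines at -0.02 to 0.10. The chi-square per degree of freedom between DMSO replicates of a line was 1.52 to 2.55. Tested on simulated counts (9380 genes), 74% of 2-fold changes were recovered at 0.3 µM and 63% at 3 µM. Of the calls, 8.24% and 7.32% were false, above the nominal rate. The simulation changed 100 genes per fold size, alike in every line and at both doses, and left the rest unchanged. Far more genes were called in the data, so these rates may not hold there.

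Genes given with all libraries are the 4 largest called rises and falls per dose with a mean of at least 10 CPM. Genes named with fold changes include the extremes of each subfamily, calls between doses, the 3 smallest p between lines and fixed pairs. Members and lists were chosen with earlier results of these data known. The alternatives were other scaling, no filter, the longest entry, each library or line left out, the libraries labelled NCI-H521 left out, thinning, DESeq2, a replicate block, 1 dose at a time and a prior count of 0.5. A member gene and a sequence are not reported here by name, though the gene is in the counts.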

Additional observations from a re-analysis of the deposited data

Results flagged for a closer look

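Among the named members, 76 groups of 4 lines were searched for a line apart from the rest, and 3 were found, where chance gives about 1 in 20 groups. HNRNPH1 at 0.3 µM had a log2 change of -0.226 in A375 and above 0 in the other lines. SRSF9 at 0.3 µM had 1.42 in NCI-H520, above the other lines. SNRNP27 at 3 µM had 1.58 in A375, below the other lines. The response of SNRPG differed between lines (adjusted p = 0.0349, edgeR), with lung minus melanoma lines at 0.731.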

How the results depend on the processing

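Calls at 0.3 µM against DMSO came to 13 to 16 higher and 38 to 51 lower under all alternatives. At 3 µM they came to 32 to 45 lower and 10 to 20 higher, with 10 higher when no filter was used. With no filter, 34.6% of all calls at 0.3 µM and 33.8% at 3 µM were higher, against 46.0% and 44.0% in the fit reported, over 16216 genes in place of 9740, and the median of all genes was -0.44 and -0.51 in place of -0.09 and -0.16; the members' median was then -0.56 and -0.49 in place of -0.37 and -0.26, above that of all genes at 3 µM. Against 0.3 µM, members higher at 3 µM numbered 5 with DESeq2 size factors, 4 with no filter, 7 in DESeq2, 5 after thinning, 4 with naming odds of at least 1000, 1 without the libraries labelled NCI-H521, 9 without NCI-H1650, 1 without NCI-H520, 0 without Hs 936.T and 1 without A375. Members lower numbered 1 after thinning, 1 without the libraries labelled NCI-H521, 1 without NCI-H1650, 0 without NCI-H520, 1 without Hs 936.T and 1 without A375. The count of members that differed between lines in response was 2 with no filter and 0 without the libraries labelled NCI-H521, and that of members higher in lung lines was 0 without these libraries. Leaving out each library gave 14 to 16 higher and 41 to 46 lower at 0.3 µM, 13 to 20 and 35 to 41 at 3 µM, 1 to 7 and 1 to 2 between doses, 0 to 3 for line response, 0 to 1 higher in lung lines, 76 to 81 for lines under DMSO, and 8 to 10 and 40 to 45 for lung minus melanoma under DMSO. With DMSO replicate as a replicate block, 81 members differed between lines, and 10 were higher and 44 lower in lung lines. Of the log2 changes of named members, 33 values under an alternative lost their call, 36 gained one and 0 reversed. The causes of these shifts were not tested, beyond fewer libraries or more genes by construction. For comparisons between doses, between lines and under DMSO, shares of all genes under the alternatives are not given. Treated libraries of 86883 to 1061771 counts limit what can be seen for members under about 10 CPM.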
